A study of Mus musculus with 12 samples.

Results

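The genes described here encode subunits of oxidative phosphorylation, the last stage of respiration in mitochondria. They were all genes of the array annotation, each by its brightest probe set, whose symbol begins with Nduf followed by a, b, c, s or v and a digit, is Sdha, Sdhb, Sdhc or Sdhd, or begins with Uqcr, Cox4 to Cox8 or Atp5. The rule found 81 genes among the 18193 genes that had probe sets annotated with only their symbol. By symbol, 35 belonged to complex I, 4 to complex II, 8 to complex III, 17 to complex IV and 17 to complex V. Of these, 77 passed the filter on dim probe sets and were tested together with 12379 genes in all. Cox7b2, Cox8c, Ndufa4l2 and Ndufb4 did not pass it.

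The glands came from control mice, of strain 129sv, and from Crx-/- mice, for which the same strain is given, and were measured on 12 Affymetrix whole-genome mouse arrays. There were 3 arrays for each of 4 groups, namely control and Crx-/- glands collected at ZT6, in the light phase, and control and Crx-/- glands collected at ZT20, in the dark phase. Zeitgeber time (ZT) counts the hours from lights on. Per the labels, all animals were kept in 12 h of light and 12 h of darkness, both sexes were used at over 2 months of age, animals killed at ZT20 were handled under dim red light, and the NuGEN Ovation kit amplified 100 ng of RNA per array. Crx is the cone-rod homeobox transcription factor of photoreceptors and pinealocytes, the melatonin-making cells of the gland, and a Crx-/- mouse carries the mutant alleles in all of its cells. The labels call the replicates biological, and do not say whether glands were pooled or what sex each array holds.

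Levels are given as log2 of the quantile-normalised signal plus 3.4, and changes as differences of such values between groups, with the standard error (SE) of limma's fit. A member was called when its p-value, adjusted by the Benjamini-Hochberg method over all 12379 genes, was under 0.05, and only called members are said to have risen or fallen. An array, labelled control ZT20 replicate 3, did not resemble its group. Over all genes tested it correlated with the other arrays of its group at 0.915 and 0.925 and with the Crx-/- ZT20 arrays at 0.97 to 0.989, where all other replicate pairs reached 0.979 to 0.992. It is kept, and counts of calls with it left out of the fit are given as well. Crx itself does not check the labels, since its brighter probe set lay between 12.56 and 13.27 on the log2 scale in both genotypes and the part of the gene that is deleted is not given. Its dimmer probe set was at 11.07 to 11.21 in control and 10.35 to 10.52 in Crx-/- glands at ZT6, and at 11.03 to 11.93 and 11 to 11.18 at ZT20, where the lowest control array was again replicate 3. The summed signal of 9 pinealocyte markers was 63510 to 64540 in control ZT6, 52700 to 60470 in control ZT20, 54250 to 60490 in Crx-/- ZT6 and 51780 to 52010 in Crx-/- ZT20, so markers of the labelled tissue were high on every array. The summed signal of 10 markers of meninges and mural cells was 21150 to 22940 in control ZT6, 38020 to 41850 in Crx-/- ZT6 and 35530 to 40320 in Crx-/- ZT20. In control ZT20 it ran from 29720 to 38370, the highest being the array labelled control ZT20 replicate 3. The 5′ to 3′ signal ratio of actin, a measure of RNA integrity and amplification, was 0.248 to 0.283 in control ZT6 and 0.169 to 0.219 in Crx-/- ZT6, without overlap, and 0.197 to 0.337 in control ZT20 and 0.197 to 0.282 in Crx-/- ZT20. That of Gapdh was 0.59 to 0.636 in control ZT6 and 0.459 to 0.548 in Crx-/- ZT6, again without overlap, and 0.576 to 0.691 in control ZT20 and 0.501 to 0.672 in Crx-/- ZT20. The highest value of both was on that same array of control ZT20, and the part of these ratios in the results was not tested. In glands measured as a whole, fewer cells of a type and less RNA per cell cannot be told apart.

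Respiratory complexes I to IV carry electrons from NADH and succinate to oxygen and, except for complex II, pump protons across the inner mitochondrial membrane, and complex V (ATP synthase) uses the returning protons to make ATP. Complex I takes electrons from NADH, complex II (succinate dehydrogenase) from succinate, complex III passes them from ubiquinol to cytochrome c and complex IV (cytochrome c oxidase) passes them to oxygen. Most subunits are encoded in the nucleus and these are the genes measured here, while a few core subunits of complexes I, III, IV and V are encoded by mitochondrial DNA and were not measured by this rule. The pineal gland is a metabolically active, densely vascularised gland. Several complex IV subunits exist as a widely expressed isoform and as a second isoform restricted to heart and skeletal muscle, or, for Cox4i2, found mainly in lung and vessel-associated cells.

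Promoter sequences of 66 of the 81 members were found in the RefSeq-derived table of the GRCm38.p6 assembly. The 250 bases before the annotated start are shown for 5 members that the results turn on. Cox8b rose in Crx-/- glands, Ndufa4 and Uqcrc1 fell, Cox7a2l fell at night in control glands, and Cox6a1 is the widely expressed partner of Cox6a2, which rose. Each is written from 5′ to 3′ on the gene's own strand, and capitals mark matches on either strand to the letters of motifs known for nuclear respiratory factor 1 (GCGCA and GCGC with any base between them), ETS factors such as GABP (CCGGAAG), YY1 (AAGATGGC), CRX (TAATCC), MEF2 (CTA and TAG with any 4 bases between them) and the E-box of basic helix-loop-helix factors (CANNTG). No 2 matches overlapped in these windows.
Cox8b, chr7:140900447-140900696, minus strand: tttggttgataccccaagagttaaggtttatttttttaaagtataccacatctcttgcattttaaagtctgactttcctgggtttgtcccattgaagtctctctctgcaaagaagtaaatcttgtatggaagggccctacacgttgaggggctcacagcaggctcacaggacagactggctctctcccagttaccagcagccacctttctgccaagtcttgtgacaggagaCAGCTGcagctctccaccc
Ndufa4, chr6:11907451-11907700, minus strand: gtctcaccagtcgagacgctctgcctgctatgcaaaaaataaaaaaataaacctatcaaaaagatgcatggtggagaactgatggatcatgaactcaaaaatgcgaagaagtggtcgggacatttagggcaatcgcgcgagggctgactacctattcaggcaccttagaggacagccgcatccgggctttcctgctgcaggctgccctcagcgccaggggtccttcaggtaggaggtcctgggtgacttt
Uqcrc1, chr9:108936398-108936647, plus strand: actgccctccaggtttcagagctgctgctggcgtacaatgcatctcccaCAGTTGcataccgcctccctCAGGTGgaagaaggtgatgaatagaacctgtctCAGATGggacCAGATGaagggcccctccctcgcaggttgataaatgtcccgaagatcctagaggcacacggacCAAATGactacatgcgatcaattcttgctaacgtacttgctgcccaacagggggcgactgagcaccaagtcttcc
Cox6a1, chr5:115348959-115349208, minus strand: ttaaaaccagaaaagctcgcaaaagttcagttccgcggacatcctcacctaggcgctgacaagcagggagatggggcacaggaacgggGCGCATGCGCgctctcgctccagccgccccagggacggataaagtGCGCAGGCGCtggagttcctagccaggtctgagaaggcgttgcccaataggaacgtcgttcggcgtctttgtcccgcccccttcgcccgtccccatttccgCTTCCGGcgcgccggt
Cox7a2l, chr17:83514334-83514583, minus strand: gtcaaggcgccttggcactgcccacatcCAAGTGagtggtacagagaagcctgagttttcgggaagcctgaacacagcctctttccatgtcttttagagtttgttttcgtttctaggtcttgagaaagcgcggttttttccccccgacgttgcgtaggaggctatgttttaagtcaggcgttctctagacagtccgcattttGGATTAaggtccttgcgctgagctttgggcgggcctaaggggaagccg

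The capitals in Cox8b mark a lone E-box that begins 19 bases before the start, those in Uqcrc1 mark 5 E-boxes, and Ndufa4 held none of the motifs in this window. Cox6a1 held the nuclear respiratory factor 1 letters beginning 162 and 117 bases before the start and the ETS letters beginning 16 bases before it. Cox7a2l held the CRX letters beginning 48 bases before the start and an E-box beginning 222 bases before it. Among the 66 promoters, 10 (15.2%) held the nuclear respiratory factor 1 letters, against 3.86% of the 27025 promoters of the table. The ETS letters stood in 11 (16.7%), against 7.05% of all promoters. The CRX letters stood in 5 (7.58%), against 6.38% of all, and E-boxes in 63.6%, against 66% of all. The YY1 letters stood in 0 of the 66, against 1.59% of all, and the MEF2 letters in 1.52%, against 3.23%. The 50 bases after the start were left out of the search, so these counts do not cover sites at or after it. The members with CRX letters were Cox6b2, Cox7a2l, Ndufa12, Ndufb7 and Ndufs4, and of these Cox7a2l was called, at night in control glands. A match of letters is no evidence that a factor binds there.

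Across both times of day, 8 members rose and 18 fell in Crx-/- glands among the 77 tested, while 51 were not called. The background was high: 43.5% of all genes tested were called, 25.3% higher and 18.1% lower. The members' share of 33.8% therefore lay below the background, with fewer rises and more falls than its split. Most changes were small. The median change of the 77 members was -0.051 on the log2 scale and that of all genes 0.04, and the median size of a change, whatever its sign, was 0.114 against 0.244. A change of 1 or more was found for 3 members (Cox6a2, Cox8b and Ndufb1), which is 3.9% of them against 6.43% of all genes. The members were also measured more evenly than most genes, with a median within-group SD of 0.0897 against 0.194. They were far brighter than most, with a median percentile of 95.46 by mean log2 signal among all genes tested. The comparisons with all genes did not match brightness, and its part in the smaller changes was not tested. Without the array labelled control ZT20 replicate 3, 11 members rose and 24 fell, against a background of 55.9% called, 31.2% higher and 24.7% lower.

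By complex, 4 complex I members rose and 6 fell of 33 tested, 0 of the 4 complex II members were called, 1 complex III member rose and 4 fell of 8, 3 complex IV members rose and 2 fell of 15, and 6 complex V members fell and 0 rose of 17. For complex II limma gave 3 of the 4 an unadjusted p under 0.05, as it did 51.9% of all genes. With control ZT20 replicate 3 left out, the rises and falls were 4 and 10 in complex I, 1 and 1 in complex II, 1 and 4 in complex III, 5 and 2 in complex IV and 0 and 7 in complex V. The median change was -0.053 in complex I, -0.058 in complex II, -0.176 in complex III, 0.008 in complex IV and -0.114 in complex V. These medians depend on how the arrays are scaled. Relative to the median of all genes, they were -0.093, -0.098, -0.217, -0.032 and -0.154 after quantile normalisation. With arrays scaled to 1 trimmed mean they were -0.203, -0.163, -0.289, -0.169 and -0.27, and with the signals as deposited -0.202, -0.162, -0.288, -0.168 and -0.269. Scaling to a trimmed mean shifts all genes of an array nearly alike. Relative to all genes it therefore repeats the signals as deposited and is no separate check. Each complex lay below all genes after quantile normalisation and with the signals as deposited, with complex III the farthest. Nearest was complex IV after quantile normalisation and complex II under the other scalings. The split of calls moved too, from 8 higher and 18 lower to 3 and 17 with trimmed means and 4 and 3 with the signals as deposited, where the median of all genes itself stood at 0.166.

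**Figure D1:**
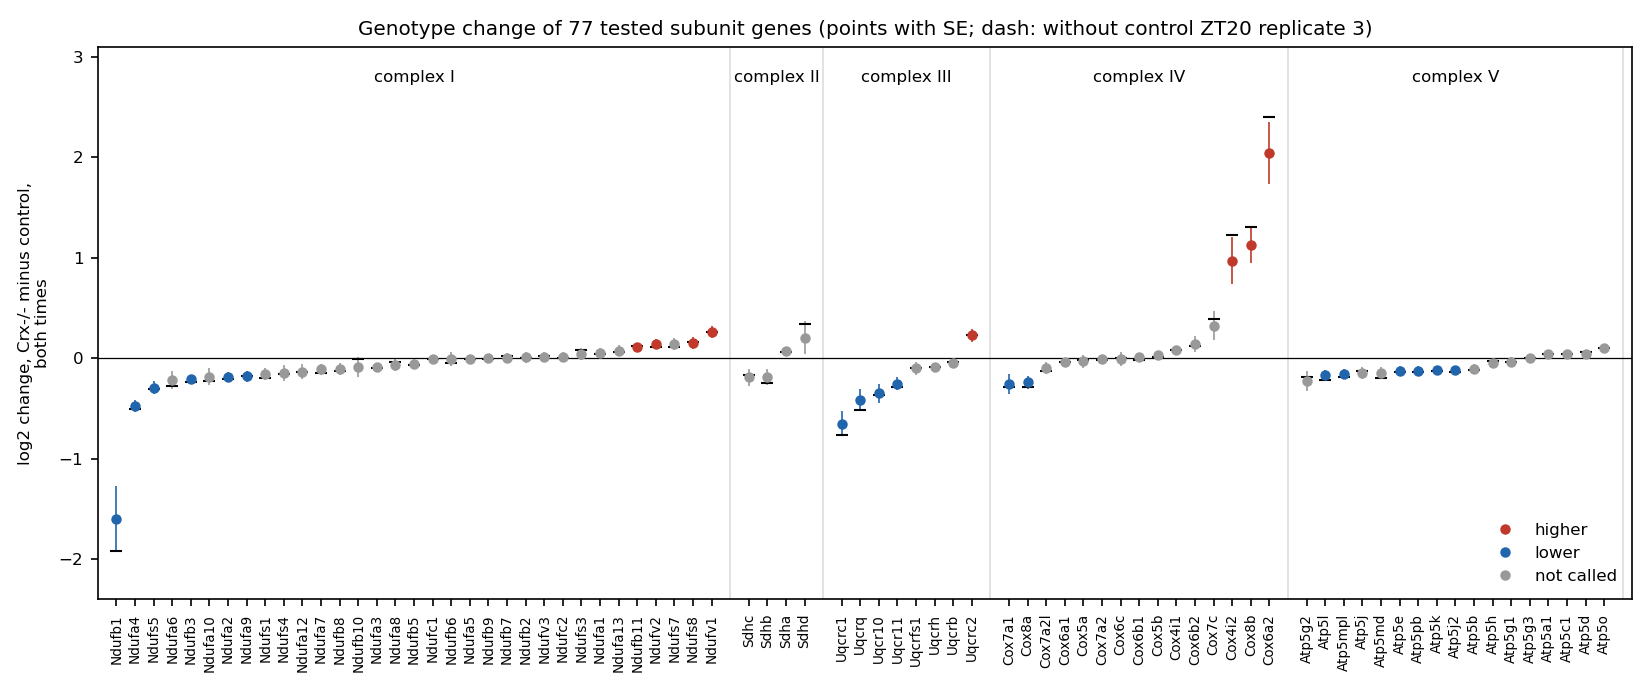
Log2 change of the 77 tested members, Crx-/- minus control over both times (vertical axis, log2 units), sorted within complexes I to V. Points are limma estimates with SE from 12 arrays, coloured by call, and black dashes are the estimates without the array labelled control ZT20 replicate 3. Cox6a2, Cox8b and Cox4i2 in complex IV stand above the rest, and Ndufb1 and Uqcrc1 below.

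**Figure D2:**
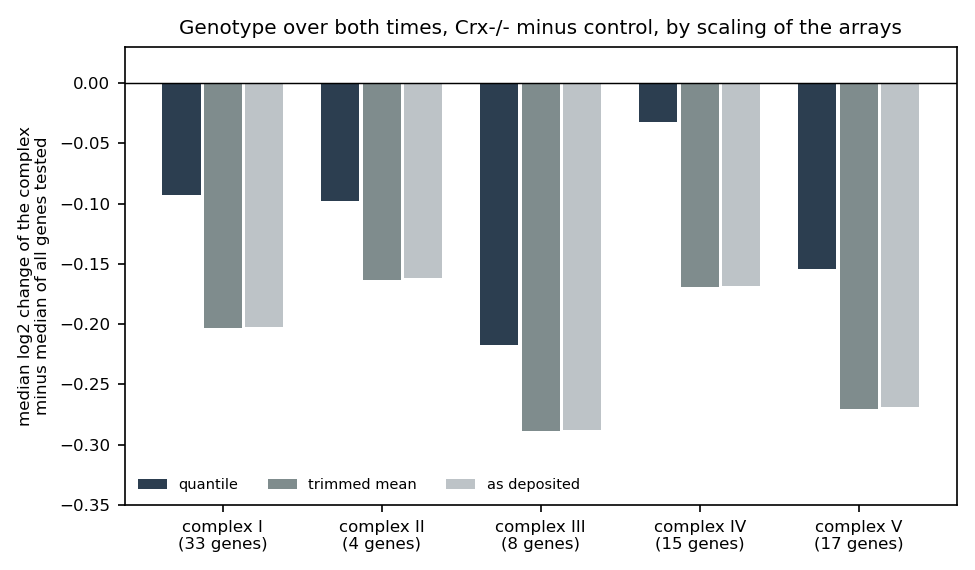
Median log2 change of each complex, Crx-/- minus control over both times, minus the median of all 12379 genes (vertical axis), under 3 scalings of the arrays. Every bar lies below 0, from -0.032 for complex IV after quantile normalisation to -0.289 for complex III with trimmed means. The bars for trimmed means repeat those for the signals as deposited, since trimmed means shift all genes of an array nearly alike.

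The largest rises were those of 3 tissue-restricted isoforms of complex IV. Cox6a2, the heart and skeletal muscle isoform of subunit VIa, had log2 levels of 6.18, 5.97 and 6.14 (control) and 8.82, 8.91 and 8.77 (Crx-/-) at ZT6, and of 6.11, 6.04 and 8.24 (control) and 8.32, 8.0 and 8.13 (Crx-/-) at ZT20. The genotypes did not overlap at ZT6, and at ZT20 the array labelled control ZT20 replicate 3 lay among the Crx-/- arrays while the other control arrays were far below them. On those other control arrays and at ZT6 in control glands Cox6a2 was below the 50th percentile used by the filter. Its entry to the test thus depended on the arrays where it was high. Over both times Cox6a2 rose by 2.05 on the log2 scale (SE 0.311, adjusted p = 0.000614), which is 4.13-fold. It rose by 2.74 (SE 0.44, adjusted p = 0.00126) at ZT6. Its change of 1.35 at ZT20 was not called (SE 0.44, adjusted p = 0.0609), and it was 2.07 once that array was left out (adjusted p = 1.17e-06). Cox6a1, its widely expressed partner whose promoter is printed above, changed by -0.04 and was not called.

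Cox8b, the muscle and brown fat isoform of subunit VIII, had log2 levels of 9.08, 9.24 and 9.12 (control) and 10.59, 10.31 and 10.54 (Crx-/-) at ZT6, and of 8.72, 9.28 and 10.08 (control) and 10.3, 10.17 and 10.39 (Crx-/-) at ZT20. All Crx-/- arrays were above all control arrays, the nearest being the array labelled control ZT20 replicate 3. Cox8b rose by 1.13 over both times (SE 0.178, adjusted p = 0.0007), by 1.33 at ZT6 (adjusted p = 0.00256) and by 0.92 at ZT20 (adjusted p = 0.0412). The ZT20 call was lost in 14 of 22 alternatives, among them the omission of each array other than that labelled control ZT20 replicate 3. Its widely expressed partner Cox8a fell by 0.24 over both times (SE 0.067, adjusted p = 0.0129) and fell by 0.27 at ZT6 (adjusted p = 0.0441), a call lost in 12 of 22 alternatives. Cox8a was at 11.71 to 11.77 in control ZT6 and at 11.3 to 11.58 in Crx-/- ZT6, without overlap. Cox8c, the testis isoform, was dim, at 3.01 to 5.54, and was not tested.

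Cox4i2, the second isoform of subunit IV, known to be regulated by oxygen in lung and other tissues, had log2 levels of 8.07, 7.93 and 7.72 (control) and 9.63, 9.02 and 9.11 (Crx-/-) at ZT6, and of 8.16, 8.3 and 9.76 (control) and 9.35, 9.31 and 9.34 (Crx-/-) at ZT20. The array labelled control ZT20 replicate 3 was the highest of all 12 arrays, and all other control arrays were below all Crx-/- arrays. Cox4i2 rose by 0.97 over both times (SE 0.235, adjusted p = 0.00617) and by 1.35 at ZT6 (adjusted p = 0.00958). Its change of 0.59 at ZT20 was not called (adjusted p = 0.219), and was 1.10 without that array (adjusted p = 0.000275). The widely expressed isoform Cox4i1 changed by 0.08 (SE 0.031, adjusted p = 0.0504) and was not called.

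Cox7a1, the muscle isoform of subunit VIIa, went the other way from Cox6a2 and Cox8b. It was at 9.46, 9.47 and 9.55 in control ZT6 and at 9.1, 9.18 and 9.1 in Crx-/- ZT6, without overlap, while at ZT20 the control arrays (8.71, 9.13 and 8.75) and the Crx-/- arrays (8.68, 8.58 and 8.88) overlapped. Cox7a1 fell by 0.26 over both times (SE 0.096, adjusted p = 0.0458). This call was lost in 13 of 22 alternatives. Cox7a2 and Cox7a2l, the widely expressed relatives, changed by -0.01 and -0.095 and were not called. Of the 15 complex IV members tested, the nuclear-encoded subunits Cox5a and Cox5b changed by -0.028 and 0.036, and Cox6b1 and Cox6b2, its testis isoform, by 0.008 and 0.146, none of them called.

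**Figure D3:**
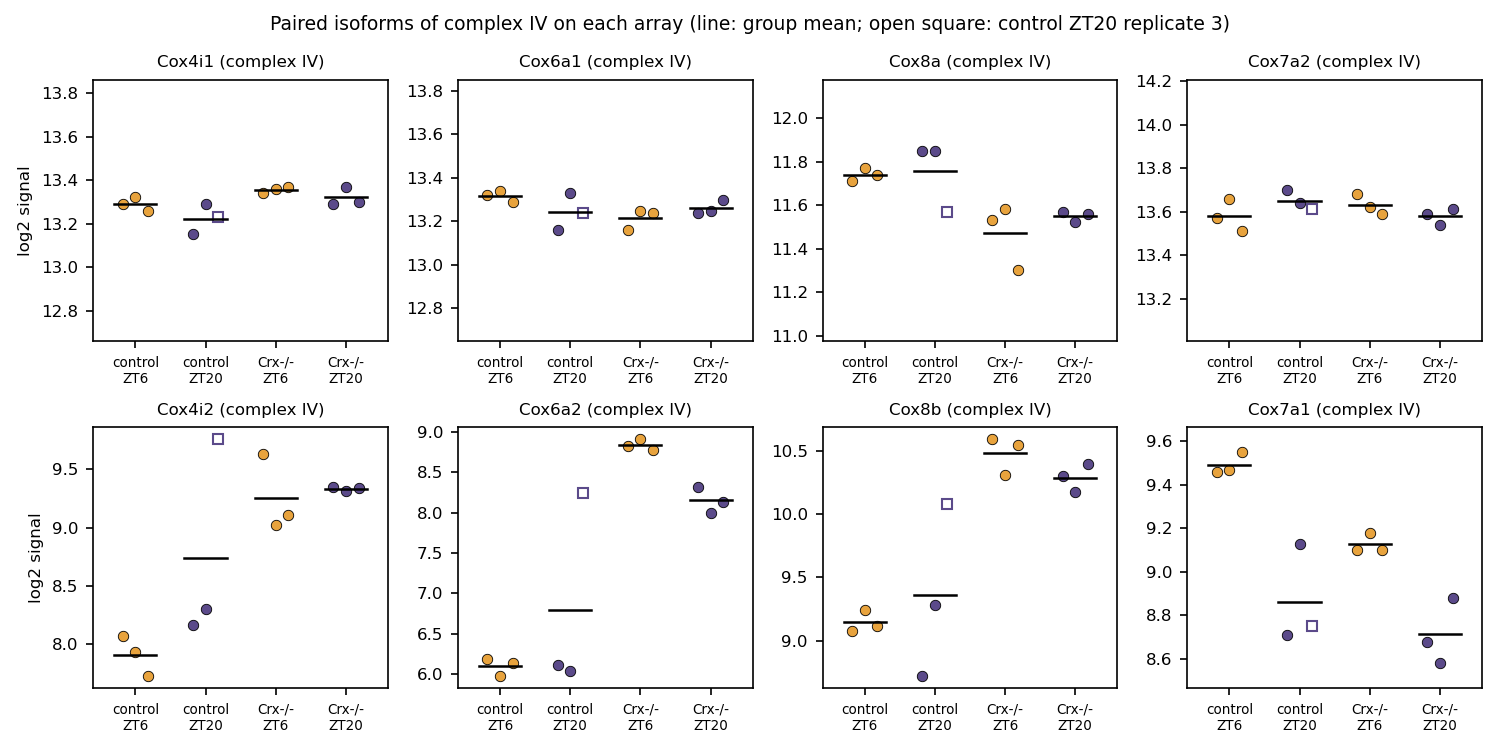
Log2 signal on each of the 12 arrays of 4 widely expressed complex IV isoforms (upper row) and their tissue-restricted counterparts (lower row), by group, with lines at group means. Open squares are the array labelled control ZT20 replicate 3. Cox4i2, Cox6a2 and Cox8b were higher in Crx-/- glands, and that array sits at or near the Crx-/- level for each.

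The rises of Cox6a2 and Cox8b were set beside markers of skeletal muscle. Of 13 muscle genes 11 were too dim to be tested, and the summed signal of the 13 was 860.4 to 1060 in control ZT6, 611.9 to 974 in control ZT20, 651.7 to 927.1 in Crx-/- ZT6 and 535.7 to 757.4 in Crx-/- ZT20. Tnnc1 alone made up 618.5 to 688.3 of the sum in control ZT6. The sarcomere and creatine kinase genes Acta1, Myh1, Myh2, Myh4, Tnnt3 and Ckm reached signals of at most 20.42, 32.51, 24.23, 31.94, 36.68 and 18.56 on any array. The other 5 untested genes reached more, with highest signals of 43.61 for Tnni2, 54.74 for Casq1, 54.98 for Mb, 59.05 for Mylpf and 109.6 for Actn3. The 27 probe sets for Bacillus genes, absent from mouse RNA, reached at most 16.4 in the signals as deposited. The muscle signals are quantile normalised, so the 2 scales differ. Of the 2 muscle genes tested, Tnnc2 rose by 2.07 over both times and Tnnc1 fell by 1.02. At ZT6 Tnnc2 rose by 3.36, from signals of 1.92 to 41.3 in control to 155 to 234.5 in Crx-/- glands. Its change of 0.77 at ZT20 was not called by limma (adjusted p = 0.486). Its ZT20 signals were 11.07 to 87.5 in control, the highest being control ZT20 replicate 3, and 36.9 to 64.39 in Crx-/- glands. Only on the Crx-/- ZT6 arrays did Tnnc2 reach the percentile used by the filter. Its entry to the test thus depended on the group where it was high. Markers of other cell types moved with genotype as well, with 9 of 10 markers of meninges and mural cells, 7 of 9 astrocyte, 6 of 9 microglial, 4 of 9 endothelial and all 4 tested oligodendrocyte markers higher in Crx-/- glands and 0 lower. Of 9 markers each, 5 brain neuron markers were higher and 1 lower, and 4 pinealocyte markers were lower and 0 higher. Among all genes tested 25.3% were called higher and 18.1% lower. With control ZT20 replicate 3 left out, the counts higher and lower were 10 and 0 for meninges and mural cells, 7 and 1 for astrocytes, 7 and 0 for microglia, 6 and 0 for endothelium, 4 and 0 for oligodendrocytes, 5 and 1 for brain neurons and 1 and 4 for pinealocytes. In that fit 31.2% of all genes were called higher and 24.7% lower. The part of these cell types in the changes of the subunit genes was not tested.

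In the authors' deposited table of genes up in Crx-/- glands, made for both times together, Cox6a2 stood with a log2 fold change of 2.11, Cox8b with 1.44 and Cox4i2 with 1.14. These were the 3 members among its 746 entries. The authors' deposited table of genes down in Crx-/- glands held 0 members among 512 entries, and the smallest log2 size in either list was 1.01. Ndufb1, which changed by -1.60 here, was not among them.

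Complex III held the most falls for its size. Uqcrc1, a core subunit of the matrix side of the complex, had log2 levels of 11.03, 11.24 and 11.3 (control) and 10.71, 10.96 and 10.48 (Crx-/-) at ZT6, and of 11.47, 11.39 and 10.76 (control) and 10.32, 10.41 and 10.41 (Crx-/-) at ZT20. The genotypes did not overlap at either time, and the array labelled control ZT20 replicate 3 was the lowest control array. Uqcrc1 fell by 0.65 over both times (SE 0.125, adjusted p = 0.00182), which is 1.57-fold, and fell by 0.83 at ZT20 (SE 0.176, adjusted p = 0.0262). Its change of -0.47 at ZT6 was not called (adjusted p = 0.0582). The ZT20 call was lost with the signals as deposited and without any of control ZT20 replicates 1 and 2 and Crx-/- ZT20 replicates 1 and 2.

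Uqcrq, a small subunit near the ubiquinone site, had log2 levels of 11.67, 11.49 and 11.48 (control) and 11, 10.78 and 11.1 (Crx-/-) at ZT6, and of 11.57, 11.56 and 10.94 (control) and 11.13, 11.05 and 11.16 (Crx-/-) at ZT20. The genotypes were apart at ZT6, and at ZT20 the array labelled control ZT20 replicate 3 was below all Crx-/- arrays while the other control arrays were above them. Uqcrq fell by 0.41 over both times (SE 0.108, adjusted p = 0.00927) and fell by 0.58 at ZT6 (adjusted p = 0.013), and its change of -0.24 at ZT20 was not called (adjusted p = 0.27). The small subunits Uqcr10 and Uqcr11 fell by 0.35 and 0.25 over both times (adjusted p = 0.0111 and 0.00876). Uqcrc2, the partner of Uqcrc1 in the core, rose by 0.23 (SE 0.067, adjusted p = 0.0171), and its second probe set rose by 0.16 (adjusted p = 0.0262). The Rieske iron-sulphur protein gene Uqcrfs1 was at 11.58 to 11.76 in control and 11.36 to 11.57 in Crx-/- glands at ZT6, without overlap. At ZT20 its genotypes overlapped, and it was not called. The calls of Uqcrq and Uqcr11 over both times were each lost in 1 of 22 alternatives, and those of Uqcr10 and Uqcrc2 in 2.

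**Figure D4:**
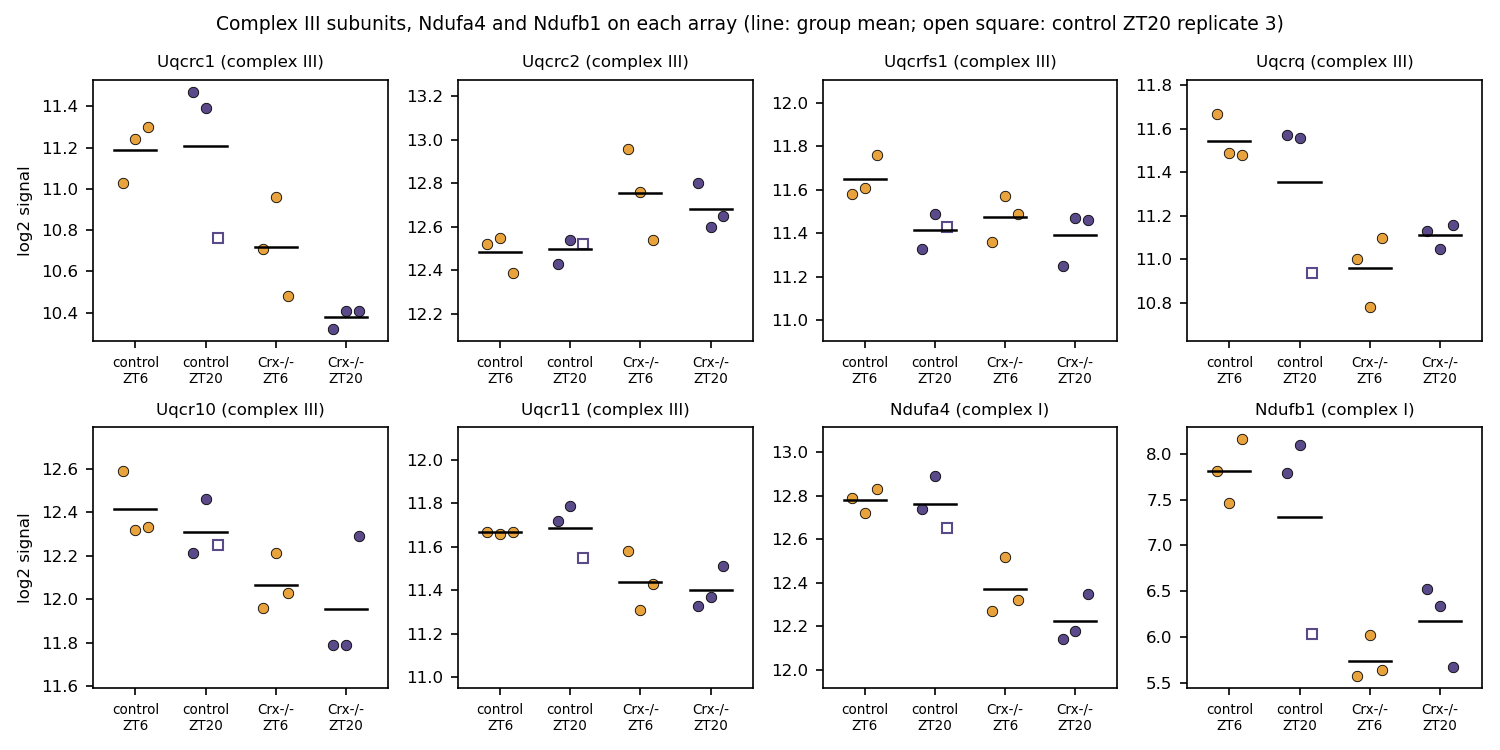
Log2 signal on each of the 12 arrays of 6 complex III members and of the complex I members Ndufa4 and Ndufb1, by group, with lines at group means and open squares for the array labelled control ZT20 replicate 3. Uqcrc1, Uqcrq and Ndufa4 are lower in Crx-/- glands and Uqcrc2 is higher.

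Among members with a complex I symbol the falls were of accessory subunits and Ndufa4, and 3 of the 4 rises were of core subunits. This split held only in part, since with arrays scaled to 1 trimmed mean 0 of these members rose and 9 fell. Ndufa4, which carries a complex I symbol but is known as a subunit associated with complex IV, had log2 levels of 12.79, 12.72 and 12.83 (control) and 12.27, 12.52 and 12.32 (Crx-/-) at ZT6, and of 12.74, 12.89 and 12.65 (control) and 12.14, 12.18 and 12.35 (Crx-/-) at ZT20. No Crx-/- array reached the control range, the array labelled control ZT20 replicate 3 included. Ndufa4 fell by 0.47 over both times (SE 0.06, adjusted p = 0.000324), which is 1.39-fold, fell by 0.41 at ZT6 (adjusted p = 0.00413) and fell by 0.54 at ZT20 (adjusted p = 0.0224), the last call being lost in the same alternatives as that of Uqcrc1. It was the member with the smallest adjusted p over both times. The related Ndufa4l2, known to be induced by low oxygen, was dim at 5.68 to 7.09 and was not tested.

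Ndufb1, an accessory subunit of the membrane arm, had log2 levels of 7.81, 7.46 and 8.16 (control) and 5.57, 6.02 and 5.64 (Crx-/-) at ZT6, and of 7.79, 8.1 and 6.03 (control) and 6.52, 6.34 and 5.67 (Crx-/-) at ZT20. The array labelled control ZT20 replicate 3 lay among the Crx-/- arrays, and all other control arrays were above all Crx-/- arrays. Ndufb1 fell by 1.60 over both times (SE 0.321, adjusted p = 0.00234), which is 3.02-fold, and fell by 2.06 at ZT6 (adjusted p = 0.00573). Its change of -1.13 at ZT20 was not called (adjusted p = 0.103) and was -1.77 without that array (adjusted p = 0.000357). Its only probe set was dim, with a signal of at most 282. Ndufb1 was below the 50th percentile used by the filter on all Crx-/- arrays and on control ZT20 replicate 3. Its entry to the test thus depended on the other control arrays, where it was high.

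The other falls in complex I were small. Ndufs5, Ndufb3, Ndufa2 and Ndufa9, all accessory subunits, fell by 0.29, 0.21, 0.18 and 0.18 over both times, with adjusted p from 0.00472 to 0.0225. Ndufv1, the NADH-binding core subunit, was at 11.97 to 12.08 in all 6 control arrays and at 12.16 to 12.5 in all 6 Crx-/- arrays, and so did not overlap between genotypes. It rose by 0.26 over both times (SE 0.057, adjusted p = 0.00349) and by 0.29 at ZT6 (adjusted p = 0.0167), and a second probe set rose by 0.26 (adjusted p = 0.0135) while another changed by 0.09. The neighbouring core subunit Ndufv2 rose by 0.14 (adjusted p = 0.0286), the accessory subunit Ndufb11 by 0.11 (adjusted p = 0.0121), and the iron-sulphur core subunit Ndufs8 by 0.15 (adjusted p = 0.0493). Ndufs8 also rose at ZT20 by 0.29 (adjusted p = 0.042), a call lost in 16 of 22 alternatives. Over both times the calls of Ndufs8 and Ndufv2 were lost in 16 and 9 of 22 alternatives. With arrays scaled to 1 trimmed mean Ndufv1, Ndufv2, Ndufs8 and Ndufb11 were not called, and Ndufb11 stood at -0.015.

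Probe sets of a gene did not always move alike. Further probe sets were tested in a fit over all kept probe sets with a lone symbol, with p-values adjusted over those. Of the 26 members called over both times, 10 had 19 further kept probe sets, of which 15 changed in the same direction, 7 of them called, and 4 in the opposite direction, 0 of them called. For Ndufs8 the other 5 probe sets ran from -0.221 to 0.119, and the median over its probe sets was -0.072. For Ndufs4, an assembly-critical accessory subunit, the brightest probe set changed by -0.15 and was not called, while a dimmer one rose by 0.57 (adjusted p = 0.00171). Of the probe sets that stood for the 77 tested members, 11 carried the suffix _s_at and 11 the suffix _x_at, which mark probes that may also bind other transcripts. Many of these genes have processed pseudogenes, so such values are uncertain. Ndufs1, the largest core subunit of complex I, changed by -0.16 over both times (adjusted p = 0.0556).

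The 4 subunits of complex II were not called for genotype. Sdha, the flavoprotein that oxidises succinate, was at 12.74 to 12.8 in control and 12.82 to 12.83 in Crx-/- glands at ZT6. At ZT20 it was at 12.63 to 12.72 and 12.76 to 12.78, so the genotypes did not overlap at either time. The iron-sulphur subunit Sdhb was at 11.04 to 11.4 in control and 10.9 to 11.19 in Crx-/- glands and changed by -0.19 (SE 0.078, adjusted p = 0.0693). For Sdhb the genotypes were apart at ZT6 and overlapped at ZT20. Without the array labelled control ZT20 replicate 3, Sdhb was called with -0.24 (adjusted p = 0.00557) and Sdhd, a membrane anchor, with 0.34 (adjusted p = 0.0268). Sdhc, the other membrane anchor, was at 11.52 to 11.72 in control and 11.19 to 11.85 in Crx-/- glands. For Sdhc the genotypes overlapped at ZT6 and were apart at ZT20.

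In complex V all 6 calls were falls of small size. They were Atp5l, Atp5mpl, Atp5e, Atp5pb, Atp5k and Atp5j2, by 0.17, 0.155, 0.12, 0.12, 0.12 and 0.11 over both times, with adjusted p from 0.0186 to 0.0453. Atp5pb is a stalk subunit, Atp5e belongs to the central stalk, and Atp5l, Atp5k, Atp5j2 and Atp5mpl belong to the membrane part. Atp5j2 was at 13.26 to 13.27 in control ZT6 and 13.06 to 13.14 in Crx-/- ZT6, without overlap, and fell there by 0.16 (adjusted p = 0.0257). Genes of the catalytic head were not called: the alpha subunit gene Atp5a1 changed by 0.04 (SE 0.023), the beta subunit gene Atp5b by -0.11 (adjusted p = 0.105), and the gamma subunit gene Atp5c1 by 0.04. The 3 genes for the c ring subunit, Atp5g1, Atp5g2 and Atp5g3, changed by -0.039, -0.226 and 0.005 and were not called, though a dimmer probe set of Atp5g1 rose by 0.535 (adjusted p = 0.00861). With the signals as deposited 0 of the 6 complex V calls remained, and with trimmed means only Atp5pb remained of them.

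When the genotypes were compared at each time, 6 members rose and 8 fell at ZT6, against 32% of all genes called (18.9% higher and 13.1% lower), and 2 rose (Cox8b and Ndufs8) and 2 fell (Ndufa4 and Uqcrc1) at ZT20, against 11.7% (6.86% higher and 4.8% lower). Without the array labelled control ZT20 replicate 3 these counts were 6 and 14 at ZT6, with 43.5% of all genes called (24.8% higher and 18.7% lower), and 8 and 17 at ZT20, with 43.6% called (24% higher and 19.6% lower). The changes at ZT6 use the same arrays in both fits, but their p-values use a spread pooled over all groups. The ZT6 count of 14 fell to 5, 6, 8 and 9 without control ZT6 replicate 1, control ZT6 replicate 3, Crx-/- ZT6 replicate 1 and Crx-/- ZT6 replicate 2. The ZT20 count of 4 was 0 without any of control ZT20 replicates 1 and 2 and Crx-/- ZT20 replicates 1 and 2, and 2 without any control ZT6 array or without Crx-/- ZT6 replicate 1 or 2. The changes at ZT6 and at ZT20 rest on different arrays, and 62 of 77 members had the same sign at both. Across the 77 members the changes at ZT6 and at ZT20 had a Pearson correlation of 0.845 and a Spearman correlation of 0.685. Over the 72 members whose change over both times was under 0.5, Pearson's value was 0.528. These are correlations across genes, and genes that share the arrays of a time are not independent replicates. No values over all genes are given beside them, so they show no trait particular to the members.

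Between day and night, 7 members fell and 0 rose in control glands at ZT20, against 16.1% of all genes called (7.11% higher and 9.03% lower). The share of the 77 members that fell was near that of all genes, so the falls show no trait particular to the members. In Crx-/- glands limma called 0 of 77 members, against 1.57% of all genes (0.695% higher and 0.872% lower), and 9 members had an unadjusted p under 0.05, as did 13.2% of all genes. The median change of the members from ZT6 to ZT20 was -0.059 in control and -0.051 in Crx-/- glands, beside -0.023 and -0.038 for all genes. The sign of the members' median in control glands was not stable, being 0.068 with arrays scaled to 1 trimmed mean and, with the signals as deposited, -0.176 beside -0.279 for all genes. Relative to all genes it was -0.036, 0.105 and 0.102 with quantile normalisation, trimmed means and the signals as deposited. The values for trimmed means and for the signals as deposited are not separate checks, since trimmed means shift all genes of an array nearly alike. Without the array labelled control ZT20 replicate 3, 6 members fell in control glands, against 25.1% of all genes called (12% higher and 13.1% lower). Then 2 fell in Crx-/- glands, Cox6a2 and Ndufs4, against 6.09% (2.57% higher and 3.52% lower). The changes in Crx-/- glands use the same arrays in both fits, but their p-values use a spread pooled over all groups.

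Cox7a1 had the smallest adjusted p of the night falls in control glands, from 9.46, 9.47 and 9.55 at ZT6 to 8.71, 9.13 and 8.75 at ZT20, a fall by 0.63 (SE 0.135, adjusted p = 0.00921). Its Crx-/- arrays were at 9.1, 9.18 and 9.1 at ZT6 and at 8.68, 8.58 and 8.88 at ZT20, without overlap, and the change there was not called. Its call in control glands was lost in 1 of 22 alternatives. Cox7a2l, a factor of respiratory supercomplexes whose promoter is printed above, was at 12.08, 12.2 and 12.18 at ZT6 and 11.86, 11.85 and 11.69 at ZT20 in control glands, without overlap, and fell by 0.35 (SE 0.086, adjusted p = 0.0166). Its other 2 probe sets fell by 0.29 and 0.345 (adjusted p = 0.0276 and 0.0278).

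Sdhd had the largest night fall in control glands, from 12.17, 12.01 and 12.11 at ZT6 to 10.83, 11.2 and 11.85 at ZT20, by 0.80 (SE 0.23, adjusted p = 0.0346). The highest of the ZT20 arrays was that labelled control ZT20 replicate 3, and the Crx-/- arrays were at 11.49, 11.71 and 12.31 at ZT6 and 12.01, 11.89 and 12.0 at ZT20. The difference in the day-night change between genotypes was 0.93 (SE 0.326, adjusted p = 0.232) and was called without that array, at 1.21 (adjusted p = 0.0114). A second probe set of Sdhd had a day-night change of -0.25 in control glands and a difference between genotypes of 0.01, neither of them called. Cox5a, Ndufs1, Ndufs8 and the stalk subunit gene Atp5pb fell by 0.29, 0.29, 0.265 and 0.23 at night in control glands, with adjusted p from 0.0302 to 0.0474. Of these calls in control glands, those of Ndufs8, Cox5a, Ndufs1, Sdhd, Atp5pb and Cox7a2l were lost in 14, 13, 12, 8, 7 and 4 of 22 alternatives. The count of 7 fell to 2, 2 and 1 without control ZT6 replicates 1, 2 and 3, to 4 without control ZT20 replicate 1, where 1 member rose, and to 3 and 4 without Crx-/- ZT20 replicates 2 and 3.

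**Figure D5:**
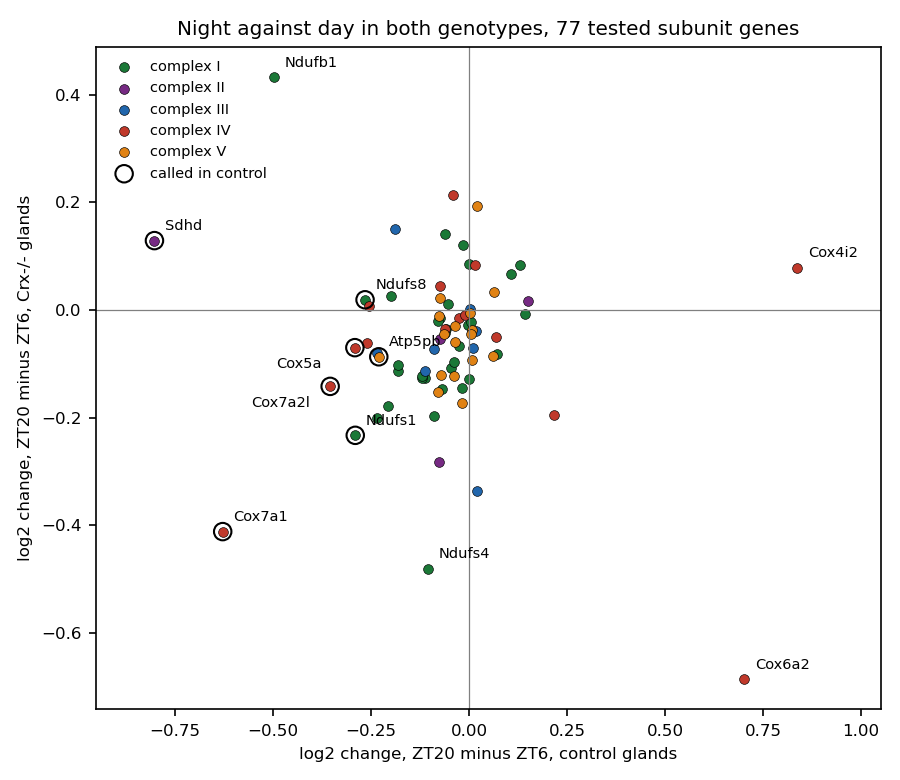
Log2 change from ZT6 to ZT20 of the 77 tested members in control glands (horizontal axis) and in Crx-/- glands (vertical axis), coloured by complex, with rings around the 7 called in control glands. The called members lie left of 0. Cox4i2 and Cox6a2 lie far to the right, and their control ZT20 means include the array labelled control ZT20 replicate 3.

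The day-night change differed between genotypes for 0 of 77 members, against 0.234% of all genes called by limma (0.113% higher and 0.121% lower), and 4 members had an unadjusted p under 0.05, as did 13.6% of all genes. Without the array labelled control ZT20 replicate 3, Sdhd was called, against a background of 6.15% (2.27% higher and 3.88% lower). The widest estimate was that of Cox6a2, -1.39 (SE 0.623, adjusted p = 0.356), which was -0.67 without this array (adjusted p = 0.11).

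Genes around the complexes were counted in the same fit, over both times and against the same 43.5% background and median of 0.04. Of 39 assembly factors 2 rose and 8 fell, with a median of -0.059. The 4 largest falls were those of the complex IV factor Cox16, which changed by -0.65, the complex I factor Ndufaf2 (-0.60), the complex II factor Sdhaf2 (-0.57) and the complex I factor Tmem126b (-0.42). Of 3 subunits outside the symbol rule, Ndufab1, the mitochondrial acyl carrier protein in complex I, fell by 0.30 and Cyc1, the cytochrome c1 of complex III, rose by 0.24. Of 17 electron carriers and ubiquinone synthesis genes 1 rose and 3 fell, and of 18 genes of the citric acid cycle and pyruvate entry 3 rose and 1 fell, with medians of -0.01 and 0.073. When control ZT20 replicate 3 was omitted, the rises and falls were 4 and 10 for assembly factors, 1 and 2 for subunits outside the rule, 2 and 4 for electron carriers and 4 and 2 for the citric acid cycle. The background was then 55.9%.

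Of 16 glycolysis genes, a list that includes a lactate carrier, 3 rose and 5 fell with a median of -0.062. Hk2, a hexokinase, fell by 2.84 (SE 0.562, adjusted p = 0.00216), the lactate dehydrogenase subunit gene Ldhb rose by 0.80, Pfkp, a phosphofructokinase, rose by 0.72, and Eno2, an enolase, fell by 0.555. Of 21 regulators of mitochondrial genes 7 rose and 2 fell with a median of 0.087. Ppargc1a, a coactivator of mitochondrial genes, rose by 0.69 (SE 0.098, adjusted p = 0.000477), Polrmt, the mitochondrial RNA polymerase, rose by 0.45, and Sirt1, a deacetylase, and Tfb2m, a mitochondrial transcription factor, fell by 0.495 and 0.44. Of 11 carriers of the mitochondrial membranes 1 rose and 3 fell, and Ckmt1, mitochondrial creatine kinase, fell by 1.57 (SE 0.271, adjusted p = 0.00111). For glycolysis, regulators and membrane carriers the rises and falls without that array were 4 and 7, 8 and 2, and 1 and 3.

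Between day and night in control glands, where 16.1% of all genes were called, 0 of the 39 assembly factors rose and 5 (12.8%) fell, and 0 of the 21 regulators rose and 3 (14.3%) fell. Both shares were near the background. Of the 17 electron carriers and ubiquinone synthesis genes 3 rose (Coq10b, Coq10a and Gpd2) and 2 fell (Coq7 and Cycs), of the 18 citric acid cycle genes 1 fell, of the 11 membrane carriers 1 fell, of the 3 subunits outside the rule 1 fell, and 0 of the 16 glycolysis genes were called by limma, with 1 at an unadjusted p under 0.05. The widest of these changes were those of Ndufaf6, a complex I factor, by -1.25 (adjusted p = 0.000322), Slc25a13, an aspartate and glutamate carrier, by -0.94 (adjusted p = 0.00293), and Tfb1m, a mitochondrial ribosomal RNA methyltransferase, by -0.91 (adjusted p = 0.0011). When control ZT20 replicate 3 was left out, the rises and falls were 1 and 9 for assembly factors, 0 and 6 for regulators, 3 and 3 for electron carriers, 0 and 2 for the citric acid cycle, 1 and 1 for membrane carriers, 0 and 0 for subunits outside the rule and 2 and 0 for glycolysis. The background was then 25.1%.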

How the data were processed

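RNA of pineal glands was measured on 12 Affymetrix mouse arrays. Per the submitters' processing notes and the series' design text, the authors processed the arrays with GCOS (version not given in the sources used here), and the deposited values are a linear signal intensity per probe set. Their trimmed means ran from 377.3 to 696.8, so the arrays were not on 1 scale. The authors' deposited gene lists, made with ChipInspector per the series' design text, hold log2 fold changes and a signed linear fold, used here as a score and only for members.

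With R 4.3.3 and limma 3.58.1, signals were quantile normalised, and 3.4, their 10th percentile, was added before log2 was taken. Probe sets at or above the 50th percentile of an array on at least 3 arrays were kept. Probe sets with several symbols, such as those of Ndufa11 and Ndufs6, were not used. The brightest kept probe set stood for a gene, 4 group means were fitted with a trend in the prior variance, and p-values were two-sided and adjusted over 12379 genes. The fit was tested on simulated data. The number of arrays limits the precision. For each gene the p-values rest on a spread within groups that is pooled over all 4 groups and moderated by limma. Control ZT20 replicate 3 thus also bears on the calls of contrasts that do not use it.

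Members, related lists and tests were chosen with earlier results of these data known. Described in full were members called in any contrast (at most 12 a direction), core subunits and paralogous isoforms, and Atp5l, Atp5mpl, Atp5e and Atp5k were named after their values were seen. Deviations of same-numbered arrays from their group means correlated at 0.126, 0.13 and 0.176 between control and Crx-/- at ZT20. This is a weak hint of pairing there, from the data and not from the labels. The main fit did not use it, so its ZT20 p-values treat the arrays as unpaired. These values are not independent, since deviations cancel within a group and the control ZT20 mean includes the unlike replicate 3. In each other pair of groups at least 1 number was under 0.1, with a range of -0.257 to 0.208, so the highest value was not at ZT20. Numbers were not taken to pair the arrays of those groups either. Alternatives were other scalings, filters, probe set rules, array weights, no trend, a replicate block and leaving out each array. A left-out array was still used in normalisation, the filter and the choice of probe sets.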

Additional observations from a re-analysis of the deposited data

How the results depend on the processing

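Of the 26 genotype calls over both times, 6 (Cox4i2, Cox6a2, Cox8b, Ndufa4, Ndufb1 and Uqcrc1) held in all 22 alternatives run, and 20 were lost in at least 1, 19 of them with the signals as deposited. The count of called members was 7 with the signals as deposited, 17 with no trend in the prior variance and 44 with array weights. At ZT6 the count of 14 was 4 with the signals as deposited, 7 with trimmed means, 9 with no filter, 9 with no trend and 27 with array weights, and 4 of the 14 calls held throughout. At ZT20 the count of 4 was 0 with the signals as deposited, 2 with no filter, 2 with no trend and 37 with array weights. For the time of day in control glands the count of 7 was 1 with the signals as deposited, 2 with trimmed means, 4 with no filter, 3 with the median of the probe sets, 2 with no trend and 19 with array weights. In Crx-/- glands array weights gave 5, and for the difference between genotypes 5. Leaving out each array in turn gave 19 to 35 over both times, 5 to 20 at ZT6, 0 to 25 at ZT20, 1 to 7 for time in control, 0 to 2 for time in Crx-/- and 0 to 1 for the difference, the highest without the array labelled control ZT20 replicate 3 except for time in control.

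The sign turned for Ndufb11 over both times with trimmed means (-0.015), and with the median of the probe sets for Ndufs8 over both times (-0.072) and at ZT20 (-0.121) and for Atp5g1 over both times, which was then called with 0.248. The causes were not tested. With the replicate number as a block the counts were 29, 13, 5, 7, 0 and 0, in the order over both times, ZT6, ZT20, time in control, time in Crx-/- and difference. This block was fitted over all 12 arrays, so it also joined groups whose numbers gave no hint of pairing. It is therefore no test of pairing at ZT20, where it kept all 4 calls and added 1. Signals near the Bacillus level of 16.4 limit Cox7b2, Cox8c and Ndufb4, though that level was taken before normalisation. The highest deposited signal of any probe set was 17206.1.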
